A study of Mus musculus with 4 samples.

Results

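The matrix proteoglycans examined here were the products of 10 genes, chosen by symbol: Dcn (decorin), Bgn (biglycan), Aspn (asporin), Lum (lumican), Fmod (fibromodulin), Prelp, Omd (osteomodulin), Ogn (osteoglycin), Acan (aggrecan) and Vcan (versican). They made up 10 of the 31053 genes in the count matrices and were followed in the 32217 of 40003 barcodes that held 1000 to 40000 unique molecular identifiers (UMIs, one for each captured transcript molecule) with at most 10% of them mitochondrial. The libraries came from the bone of wild-type mice of 2 groups. HLU mice had their hindlimbs unloaded by tail suspension for 28 days, and Ctrl mice were kept without suspension. Each group had 2 libraries, and all 4 were made with the 10x Genomics 3′ kit, version 3.1, from tibiae and femurs after the marrow had been washed out and the tissue dissociated enzymatically, so the cells are those that washing left and digestion released. The methods of the study give the mice an age of 8 weeks before suspension, whereas the deposited description places the samples at postnatal day 28, and the age was therefore not settled. The question put to these genes was where in the bone each is transcribed and how its level differed after unloading.

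A proteoglycan is a core protein that carries sulphated sugar chains. Dcn, Bgn, Aspn, Lum, Fmod, Prelp, Omd and Ogn belong to the small leucine-rich proteoglycans, whose curved core proteins bind collagen and other matrix proteins, and several of them set the width and spacing of collagen fibrils in skin, tendon, cartilage and bone. Acan and Vcan are large aggregating proteoglycans that bind hyaluronan. Aggrecan holds water in cartilage, and versican lies in looser matrix and is also made by monocytes.

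Several members are neighbours in the genome (mouse build GRCm38, GENCODE M21). On chromosome 13, Aspn (chr13:49544443-49567565), Omd (chr13:49582462-49592822) and Ogn (chr13:49608046-49624501) follow each other on the plus strand with gaps of 14.9 and 15.2 kb. Dcn (chr10:97479609-97518143) and Lum (chr10:97565128-97572703) lie 47.0 kb apart on the plus strand, and Prelp (chr1:133910304-133921414, minus strand) and Fmod (chr1:134037254-134048277, plus strand) lie 115.8 kb apart. No other protein-coding gene was annotated in these gaps. Bgn (chrX:73483602-73495933), Acan (chr7:79053483-79115099) and Vcan (chr13:89655312-89742509, minus strand) stand alone.

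The promoters of the chromosome 13 trio are shown because these adjacent genes had different places of transcription (below), and Ogn and Aspn, which are separated by Omd, had the most similar ones. The RefSeq promoter table (GRCm38.p6) had an entry for 8 of the 10 members, none for Dcn and Lum. The 250 bases before each RefSeq start are printed 5′ to 3′ on the plus strand, with capitals for any match on either strand to ACCACA (RUNX), ACAAAG (SOX), TGANTCA (AP-1) or, for the TATA box, the letters TATAAA.
Aspn, chr13:49544193-49544442: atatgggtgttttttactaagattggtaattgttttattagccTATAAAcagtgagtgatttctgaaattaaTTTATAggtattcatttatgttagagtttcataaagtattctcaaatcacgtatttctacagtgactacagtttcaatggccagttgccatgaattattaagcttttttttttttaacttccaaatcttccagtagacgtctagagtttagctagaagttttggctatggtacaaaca
Omd, chr13:49582212-49582461: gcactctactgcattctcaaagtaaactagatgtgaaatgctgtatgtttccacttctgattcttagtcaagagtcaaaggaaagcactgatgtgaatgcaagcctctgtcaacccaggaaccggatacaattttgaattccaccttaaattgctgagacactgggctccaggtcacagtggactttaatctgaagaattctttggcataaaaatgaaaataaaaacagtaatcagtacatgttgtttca
Ogn, chr13:49607765-49608014: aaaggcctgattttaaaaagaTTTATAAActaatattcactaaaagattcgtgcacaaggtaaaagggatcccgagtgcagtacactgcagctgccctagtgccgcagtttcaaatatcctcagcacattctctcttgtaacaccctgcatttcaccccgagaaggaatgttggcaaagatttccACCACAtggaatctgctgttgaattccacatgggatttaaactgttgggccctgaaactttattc
Aspn had TATAAA matches that began 207 and 178 bases before the start. Ogn had 2 overlapping ones on opposite strands at 229 and 227 bases and ACCACA at 65 bases. Omd had no match, and GC content was 30%, 38.4% and 42% in Aspn, Omd and Ogn. Among the 32536 promoters of the table, windows of this length held TATAAA in 12.3%, ACCACA in 14.0%, ACAAAG in 16.5% and TGANTCA in 6.73%, and among the 8 members 2, 1, 0 and 0 did. A match is a run of letters and not a measured binding site.

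The libraries differed in their cells before any level is compared. In the barcodes of the rule they held 45347595 to 87604282 UMIs, with a median of 3799 to 6294.5 per barcode. After doublets and barcodes rich in haemoglobin were left out, 29309 cells were clustered without the 10 members among the features. Osteochondral cells, named from chondrocyte, osteoblast, stromal, fibroblast and tendon markers, numbered 3608 and 2403 in Ctrl replicates 1 and 2 but 159 and 178 in HLU replicates 1 and 2 (64.2%, 51.1%, 3.36% and 2.46% of UMIs). There were 202 and 362 monocytes in Ctrl, against 451 and 1297 in HLU. The HLU osteochondral sums also held more neutrophil marker UMIs (2.22% and 1.64%, against 0.158% and 0.286%) and fewer UMIs of the 59 osteochondral class markers (1.42% and 2.28%, against 5.62% and 5.78%), with 54 and 57 of these detected, against 59 and 59. In the Ctrl libraries matrix transcripts also appeared in cells not known to make them, and whether free RNA in the droplets gave them was not tested. Mature neutrophils, for example, held 1103 and 888 Dcn counts per 1000000 UMIs (CPM) in the Ctrl group, against 3.80 and 2.38 in the HLU group. The neutrophil level is taken as the background of each gene, and is given below for Dcn, Bgn, Fmod, Acan and Vcan. Its Ctrl mean was 27.4 CPM for Lum, 18.7 for Prelp, 2.47 for Omd, 1.35 for Ogn and 0.603 for Aspn. Between 23 and 36 cell barcodes were shared by any pair of libraries.

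Clustering the osteochondral cells again gave 12 classes, numbered K1 to K12 and called by their leading genes. K3 (Cilp, Gas1) was articular chondrocyte-like, K7 (Fxyd2, Prkg2) and K8 (Matn3, Col9a1) hyaline chondrocyte-like, K9 (Ibsp, heat shock genes) osteoblast-like, K10 (Cxcl5, Il1rl1) mesenchymal stromal-like and K11 (Apod, Myoc) connective tissue fibroblast-like with tendon markers such as Scx and Tnmd. K8 had 9 of 10 hyaline chondrocyte markers raised, and also 5 of 10 osteoblast markers (Bglap, Bglap2, Sp7, Alpl and Runx2). K10 also had 5 of 10 connective tissue fibroblast markers raised (Dpt, Clec3b, Ly6a, Mfap5 and Cd34). K11 also had 4 of 10 mesenchymal stromal markers raised (Pdgfrb, Cxcl12, Lepr and Lpl). K1 (Col10a1, Cytl1) had 3 of 6 hypertrophic chondrocyte markers raised (Col10a1, Cytl1 and Scin), so hypertrophic chondrocyte-like by the naming rule, and is called by its genes here. The others stayed unnamed: K2 (Itm2a, Saa1), K4 (chaperone genes of the endoplasmic reticulum), K5 (Npy, Slurp1), K6 (Steap4, Spp1) and K12 (Clic5, Col22a1). All 12 held cells of both Ctrl libraries, between 84 and 637 each, so the places of transcription are described there, as levels with no test, since classes were made from these same cells. "Apart" means that the ranges of the 2 Ctrl libraries did not overlap.

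Decorin was found in every osteochondral class, though not evenly. In the Ctrl libraries Dcn had 51981 and 48688 CPM in K5 and 40081 and 47755 CPM in K1, and it was lower in K6, K2 and K3, which were not apart from each other, and lowest with 6573 and 5178 CPM in the hyaline chondrocyte-like K7 and 1643 and 1492 CPM in K8. The mean level in K5 was 32.1 times that in K8, and 7 of the 11 neighbouring pairs in its order of classes were apart. The K8 level lay little above the neutrophil background of 995 ± 152 CPM (SD, n = 2). In K7, K8 and K12 Dcn lay under its level in Ctrl barcodes under 1000 UMIs (12254 and 9672 CPM). A Dcn UMI was found in 99.9% (exact 95% interval 99.68 to 99.96%) and 99.8% (99.57 to 99.95%) of Ctrl osteochondral cells, but also in 91.5% (89.5 to 93.3%) and 92.2% (90.5 to 93.7%) of Ctrl mature neutrophils, where the median cell was shallower (1990 and 2607 UMIs, against 7987.5 and 10697). With each cell thinned to 1000 UMIs these shares were 94.3% and 91.8% in osteochondral cells and 70.3% and 61.7% in neutrophils.

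Biglycan, the closest relative of decorin, had another order of classes (r = -0.55 between Dcn and Bgn over 12 classes in 2 Ctrl libraries, a description). Bgn was highest in K8 (4745 and 3408 CPM) and K11 (2724 and 3541 CPM), which were not apart, and lowest in K1 (762 and 412 CPM), where Dcn was second highest, though both genes were high in K5. The spread of means was 6.94 times, the narrowest of the 10 members, and the neutrophil background was 44.8 ± 4.06 CPM (SD, n = 2). Ctrl barcodes under 1000 UMIs had 911 and 695 CPM of Bgn, above the K1 level of the same library. Asporin, the third member of this subfamily and a regulator of mineralisation, was the most confined. Aspn had 440 and 631 CPM in the fibroblast-like K11, 75.4 and 58.9 CPM in K10 and 63.5 and 33.2 CPM in K9, and at most 17.7 CPM in any library of the other 9 classes. K11 held only 2.20% and 0.919% of the UMIs of the Ctrl libraries but 44.9% and 46.6% of their Aspn UMIs. Ctrl barcodes under 1000 UMIs had 24.4 and 9.25 CPM of Aspn, above K1 to K4 and K6 to K8 in each library.

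Lum, Fmod, Prelp and Omd did not all peak in the same classes. Lumican, which regulates collagen fibrils, was highest in K11 (1166 and 2580 CPM) and K10 (1685 and 1925 CPM), and K10 held 39.7% and 35.8% of all Lum UMIs in the Ctrl libraries. Fibromodulin, a tendon and cartilage relative of lumican, was highest in K11 (1305 and 1086 CPM) and K5 (969 and 1244 CPM). Prelp, which anchors collagen to basement membranes, was highest in K5 (780.0 and 783 CPM) and K1 (824 and 729 CPM), and lowest in K12 (54.5 and 84.1 CPM). Osteomodulin, known from mineralised tissue, was highest in K6, a class led by Steap4 and Spp1, with 619.5 and 754 CPM, followed by K2 with 180 and 389 CPM. K6 held 25.2% and 31.9% of the Omd UMIs, and the osteoblast-like K9 had 129 and 93.7 CPM of Omd. Ctrl barcodes under 1000 UMIs had 256 and 366 CPM of Lum, above K1 to K4 in each library. For Fmod they had 234 and 159 CPM, above K1, K4 and K12. For Prelp they had 271 and 240 CPM, above K9 and K12. For Omd they had 53.9 and 31.6 CPM, above K3, K4, K8, K10 and K12.

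Osteoglycin, from a separate subfamily, stood with asporin rather than with its adjacent neighbour osteomodulin. Ogn had 651 and 494 CPM in K11, 69.6 and 82.6 CPM in the osteoblast-like K9 and at most 44.7 CPM in any library of the other classes, and K11 held 42.7% and 30.7% of its UMIs. Over the 24 points of 12 classes in 2 Ctrl libraries, Pearson's r of log2(CPM + 1) was 0.78 for Ogn and Aspn, 0.43 for Ogn and Omd and 0.08 for Omd and Aspn. It was -0.25 for the neighbours Dcn and Lum and 0.50 for Fmod and Prelp. The points share libraries and any background, so these values describe the profiles and were given no p.

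Aggrecan marked the other end. Acan had 2772 and 4328 CPM in K2, 2429 and 3482 CPM in the Col10a1-high K1, and between 688 and 2227 CPM in each library of K3 to K8. It had 138 and 167 CPM in K9, and in K10 to K12 no library exceeded 95.3 CPM. These classes lay under the 468 and 578 CPM of Ctrl barcodes under 1000 UMIs. In mature neutrophils Acan stood at 51.0 and 67.2 CPM, so its level in K10 (81.3 and 91.4 CPM), K11 (45.7 and 95.3 CPM) and K12 (28.2 and 27.8 CPM) was not clearly above background. Its correlation over the 24 points was -0.72 with Aspn, -0.61 with Lum and 0.62 with Prelp. Versican, the other large proteoglycan, was highest among these classes in K5 (135 and 131 CPM), K10 (101 and 90.9 CPM) and K11 (43.0 and 133 CPM), and in the hyaline chondrocyte-like K8 (4.76 and 1.90 CPM) it was at the neutrophil level of 4.97 ± 0.221 CPM (SD, n = 2). Ctrl barcodes under 1000 UMIs had 40.0 and 40.9 CPM of Vcan, above K1 to K3, K6 to K9 and K12 in each library.

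**Figure D1:**
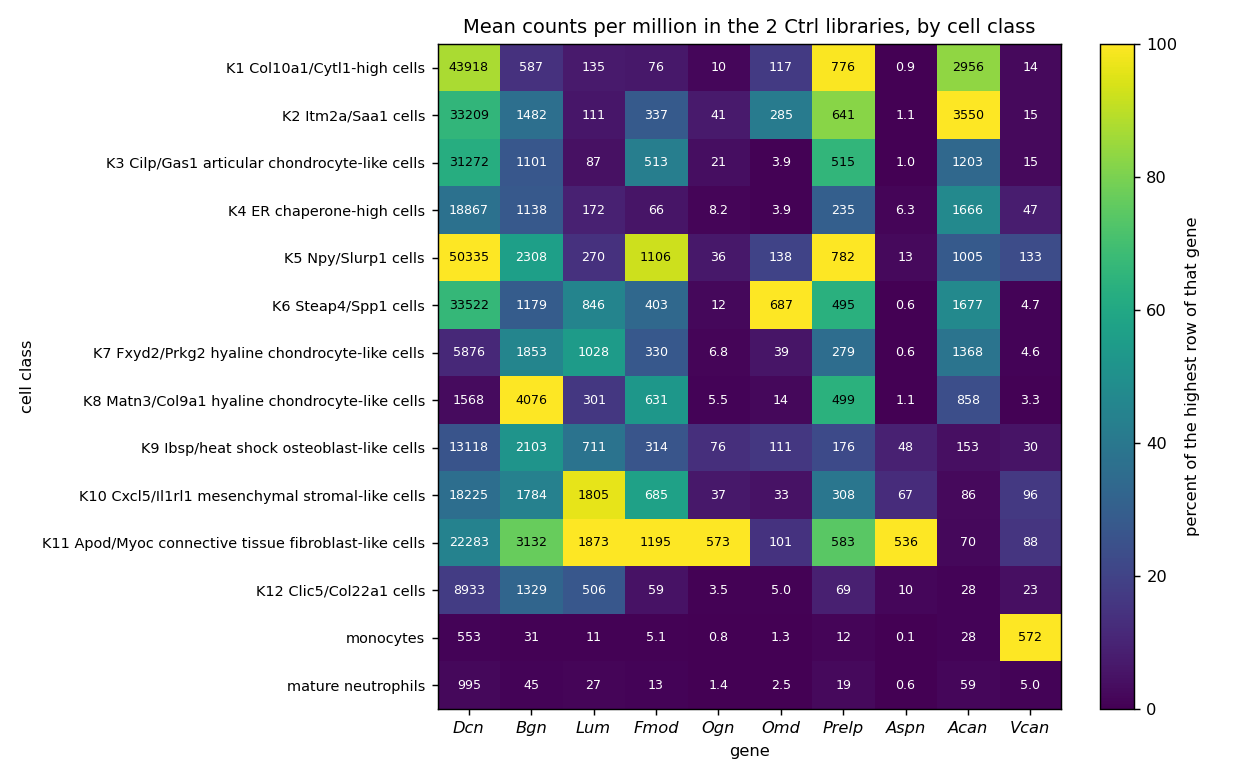
Mean CPM of each gene (columns) in the 2 Ctrl libraries for the 12 osteochondral classes, monocytes and mature neutrophils (rows), with colour as the percent of that gene's highest row. Dcn peaks in K5 at 50335 CPM, Acan in K2 at 3550, Aspn and Ogn in K11 at 536 and 573, and Vcan in monocytes at 572.

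Other genes with a like profile were sought among 3568 genes with at least 50 CPM in some class of both Ctrl libraries, over the same 24 points. Aspn was nearest to Fndc1 (r = 0.97), Itgbl1 (0.94) and the fibroblast marker Clec3b (0.93). Ogn was nearest to Lrig3 (0.84), Cavin1 (0.84) and the tendon gene Tnmd (0.83). Acan was nearest to Eps8l2 (0.95), Meltf (0.94) and Trpv4 (0.94), the last a calcium channel of chondrocytes. Clec3b, Tnmd and Col12a1 (given below for Bgn) were among the markers used to name cells. All were raised in K11, and Clec3b also in K10. Dcn was nearest to Sbsn (0.94), Sod3 (0.91, an extracellular superoxide dismutase) and Serpine2 (0.90), Lum to Fzd1 (0.90), Antxr2 (0.88) and Sh3pxd2b (0.85), and Vcan to Abi3bp (0.88), Igfbp6 (0.88) and Nov (0.86). Bgn was nearest to Thbs3 (0.83), Col12a1 (0.81) and Srpx (0.80), and Omd to Cst3 (0.83), the Wnt inhibitor Wif1 (0.79) and Ecm2 (0.79). Fmod (Col5a1, 0.76) and Prelp (Pdgfrl, 0.78) had the loosest nearest neighbours, followed for Fmod by Vit (0.75) and Col16a1 (0.73) and for Prelp by Timp3 (0.70) and Mfge8 (0.68).

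Over all barcodes of the rule, 9 of the 10 members were lower in the HLU libraries and Vcan alone stood higher, without passing the test. UMIs were summed per library and tested with edgeR's quasi-likelihood test over 15385 genes, and levels are CPM scaled by TMM factors. Each SE given with an edgeR log2 fold change is its absolute value divided by the square root of the test's F statistic. It restates the test and was not estimated separately. The 9 members had adjusted p-values of 0.00326 to 0.0200, and 17.1% of all genes tested were called lower. In sums of this kind, fewer cells of a type and less RNA per cell cannot be told apart. Dcn had 17727 and 14477 scaled CPM in Ctrl and 137 and 220 in HLU bone (log2 fold change -6.50 ± 0.47 SE, edgeR adjusted p = 0.00326). Dcn was thus the member with the most negative fold change, and both HLU libraries lay far under both Ctrl libraries. A Dcn UMI was found in 7101 of 7340 and 7325 of 7635 Ctrl barcodes, and in 241 of 7757 and 316 of 9485 HLU barcodes. Acan went from 769.7 and 930.4 scaled CPM to 13.7 and 23.4 (log2 fold change -5.52 ± 0.44 SE, edgeR adjusted p = 0.00338). Lum had 325 and 344 scaled CPM in Ctrl and 13.3 and 9.12 in HLU (-4.90 ± 0.35 SE, edgeR adjusted p = 0.00326), and Fmod 265 and 242 against 4.43 and 3.68 (-5.97 ± 0.32 SE, edgeR adjusted p = 0.00326). For each of these genes the highest HLU value lay far below the lowest Ctrl value. Both HLU libraries lay below both Ctrl libraries, by any distance, for 35.2% of all genes tested. Among the rarer members, Ogn (32.3, 14.1, 0.323 and 0.714 scaled CPM), Omd (76.7, 64.5, 0.968 and 4.04) and Aspn (20.3, 11.8, 0.129 and 0.899) changed by -5.44 ± 0.65, -4.80 ± 0.74 and -4.89 ± 0.89 (log2, SE). Aspn was not called without Ctrl replicate 1 (-4.47, edgeR adjusted p = 0.0677). Bgn and Prelp changed by -5.48 ± 0.47 and -5.68 ± 0.52. The median over the 10 members was -5.46, against 0.04 over all genes.

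**Figure D2:**
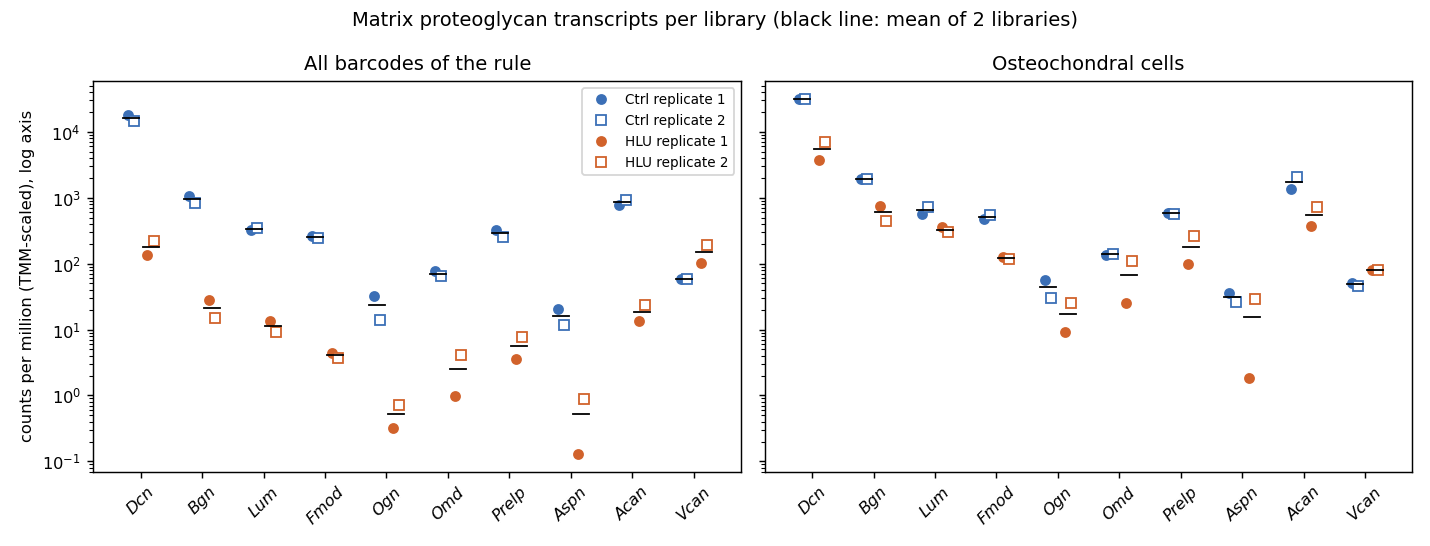
TMM-scaled CPM (log axis) of the 10 genes in each Ctrl (blue) and HLU (orange) library, over all barcodes of the rule (left) and in osteochondral cells alone (right), with a black line for the mean of 2 libraries. The gap between groups for Dcn narrows from 17727 and 14477 against 137 and 220 on the left to 31196 and 31690 against 3734 and 7051 on the right, and Vcan is higher in HLU in both panels.

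Within osteochondral cells as a whole, the differences were smaller and most did not pass the test. Fmod was the member that did, with 469 and 556 scaled CPM in Ctrl and 124 and 117 in HLU (log2 fold change -2.09 ± 0.25 SE, edgeR adjusted p = 0.0418, 13389 genes). Its call was lost without Ctrl replicate 1 or Ctrl replicate 2. Fmod was also not called with a gate on osteochondral markers in place of clusters (-1.36, edgeR adjusted p = 0.271), without integration (-1.80, 0.0766) or with the low-UMI sub-clusters added (-2.27, 0.0516), the last chosen after seeing the data. Its Ctrl level in neutrophils was 13.1 ± 0.575 CPM (SD, n = 2). Called lower were 0.396% of all genes tested. Decorin had 31196 and 31690 scaled CPM in Ctrl and 3734 and 7051 in HLU (-2.54 ± 0.46 SE, edgeR adjusted p = 0.0703). Bgn had 1903 and 1903 against 752 and 445 (-1.67 ± 0.36 SE, edgeR adjusted p = 0.0871), and Acan 1365 and 2078 against 377 and 721 (-1.65 ± 0.44 SE, edgeR adjusted p = 0.125). For these 3 genes the groups did not overlap, but the test over 2 libraries each did not pass. Prelp (-1.69 ± 0.48), Ogn (-1.29 ± 0.53), Omd (-1.02 ± 0.63) and Lum (-0.98 ± 0.28) also had both HLU libraries below both Ctrl libraries, with adjusted p-values of 0.142 to 0.395 by edgeR. Thus 8 of the 10 members lay lower in both HLU libraries, a pattern shown by 29.2% of all genes, and the members' median was -1.47 against -0.00 for all genes. Aspn overlapped between the groups, since HLU replicate 2 (29.5 scaled CPM) lay between the Ctrl values of 36.1 and 26.4 whereas HLU replicate 1 had 1.83. Vcan went the other way, with 50.9 and 46.2 scaled CPM in Ctrl and 80.3 and 78.9 in HLU (0.71 ± 0.19 SE, edgeR adjusted p = 0.128), and 26.6% of all genes had both HLU libraries above. With the marker gate this was 0.21 (edgeR adjusted p = 0.778) and with the first clustering at resolution 0.5 it was 0.32 (edgeR adjusted p = 0.319). The part of the neutrophil transcripts and of the lower class marker content of the HLU sums in these differences was not tested.

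The share of osteochondral cells with a UMI also differed. Acan was found in 63.6% (exact 95% interval 62.0 to 65.2%) and 76.7% (74.9 to 78.3%) of Ctrl cells, and in 25.8% (19.2 to 33.3%) and 53.9% (46.3 to 61.4%) of HLU cells. Thinned to 1000 UMIs, the shares were 38.5% and 50.1%, against 13.8% and 32.6%, and those of mature neutrophils 5.51% and 7.57%, against 0.0505% and 0.00%. Dcn was found in 51.6% (43.5 to 59.6%) and 79.2% (72.5 to 84.9%) of HLU osteochondral cells, with median depths of 4948 and 9398.5 UMIs, against shares near 100% in Ctrl. The 2 HLU libraries differed from each other here, with HLU replicate 1 the lower for both genes. In HLU replicate 1, K9 gave 28 cells (median 1466.5 UMIs) and K6 gave 27 (median 1533 UMIs). S100a8 and S100a9 made up on average 5.53% and 11.6% of their UMIs, above the 2% used to leave out whole sub-clusters. The part of these cells in the shares was not tested.

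Since the classes were present in other proportions after unloading, the level each HLU library would have had at the Ctrl class levels and its own mix of classes was computed. The log2 ratio of the observed Dcn level to this one was -2.29 and -1.64 in HLU replicates 1 and 2. Fmod gave -1.69 and -1.92, Lum -1.21 and -1.51, and Bgn -0.99 and -1.74. Prelp gave -1.87 and -0.69 and Acan -1.57 and -0.85. For these 6 genes both libraries were below the level computed from the mix. Ogn (-2.08 and -0.60) and Aspn (-4.36 and -0.30) were also below in both, by very different amounts, Omd was split (-2.13 and 0.25), and Vcan was above in both (1.07 and 0.83). With 2 libraries these are values with no test. The computation took every HLU cell as a true member of its class. Some classes held neutrophil transcripts in HLU, such as K6 (27 and 2 cells), with S100a8 and S100a9 at 11.6% and 17.0% of UMIs on average. The Ctrl class levels also include any free RNA of those libraries. The part of either in these ratios was not tested, so the ratios do not separate mix from level.

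**Figure D3:**
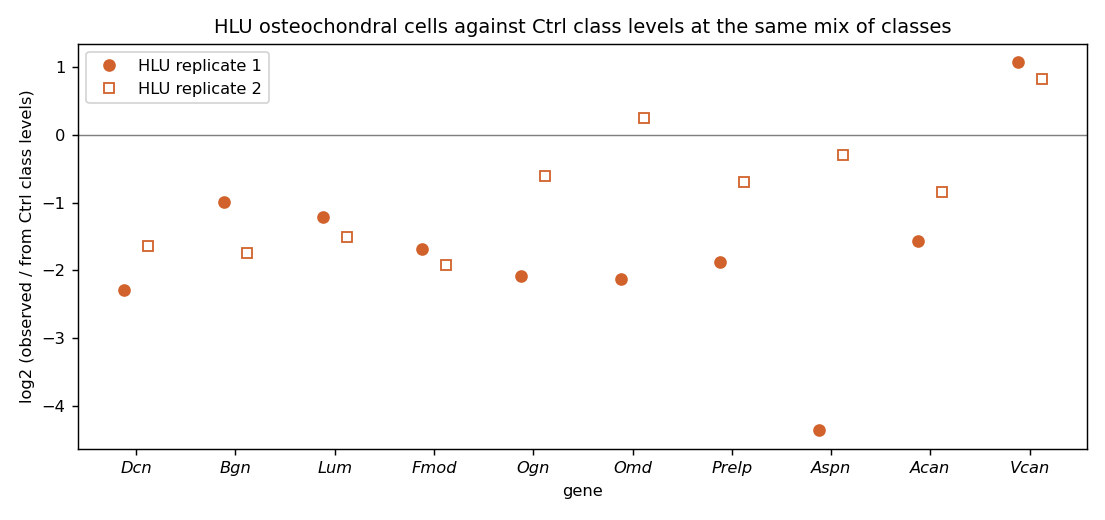
Log2 ratio of the observed CPM in HLU osteochondral cells to the CPM computed from Ctrl class levels at the same mix of classes, for each gene and each HLU library (filled, replicate 1, open, replicate 2). Most points lie under 0, Vcan lies above it at 1.07 and 0.83, and the libraries are furthest apart for Aspn at -4.36 and -0.30.

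Only K2, K7, K10 and K11 held at least 10 cells in every library and were tested by class. In the mesenchymal stromal-like K10 (301, 250, 41 and 44 cells) 1 of 10 members was called lower, against 0.242% of 9922 genes. This was Acan, with 333 and 334 UMIs in Ctrl and 0 in both HLU libraries (at least 31.6-fold lower from a floor of 3 counts over the group, edgeR adjusted p = 0.0236). With 0 UMIs in HLU, Acan passed the filter on low counts through the Ctrl libraries alone. As given above, its Ctrl level in this class was close to that of neutrophils. In mature neutrophils Acan also went from 51.0 and 67.2 CPM in Ctrl to 0.181 and 0.217 in HLU. The part of such a background in this call was not tested. Acan was called in 12 of 13 settings and not without integration of the libraries (edgeR adjusted p = 0.0773). The count of all genes called in this class also moved with the setting, from 9 without integration to 1221 with no filter on low counts (37 as reported). Omd had 0 UMIs in the HLU libraries too (at least 12.3-fold lower, edgeR adjusted p = 0.0531). It likewise passed the filter on low counts through the Ctrl libraries alone. Its Ctrl level in this class was 37.6 and 29.0 CPM, under the 53.9 and 31.6 CPM of Ctrl barcodes under 1000 UMIs. The part of a background in this value was not tested. Lumican, for which this class was the main source, went from 1767 and 2146 scaled CPM to 47.9 and 166 (-4.19 ± 0.62 SE, edgeR adjusted p = 0.0584), and Dcn from 20050 and 19329 to 927 and 2869 (-3.37 ± 0.57 SE, edgeR adjusted p = 0.0700). Both lay far outside the Ctrl range without passing. Fmod (-3.08 ± 0.70), Prelp (-2.56 ± 0.93), Bgn (-1.43 ± 0.30) and Ogn (-1.23 ± 0.47) also lay below in both HLU libraries, which made 8 members with Acan, Omd, Lum and Dcn (26.0% of all genes), while Aspn overlapped. Vcan lay above in both, with 106 and 101 against 175 and 171 scaled CPM (0.74 ± 0.25 SE, edgeR adjusted p = 0.214). Of all genes, 24.1% had both HLU libraries above both Ctrl libraries, and 0.131% were called higher. The HLU cells of this class had another balance of stromal markers. All 10 were detected in each library, but Lpl had 41.5 and 37.8 CPM in Ctrl and 845 and 278 in HLU, Adipoq 6.59 and 6.30 against 46.6 and 80.6, and Pdgfra 401 and 349 against 103 and 145. Neutrophil markers made up 0.876% and 1.14% of the HLU UMIs of the class, against 0.152% and 0.308% in Ctrl. Their part in the results of this class was not tested.

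In the fibroblast-like K11 (276, 84, 11 and 10 cells) 1 of 10 members was called lower and 0 higher, against 1.98% and 2.89% of 3594 genes (4.87% in either direction). Aspn, the gene most confined to this class, had 597 and 736 scaled CPM in Ctrl and 43.3 and 142 in HLU (-2.80 ± 0.66 SE, edgeR adjusted p = 0.0262), from 501, 318, 2 and 8 UMIs. Ogn had 883 and 576 scaled CPM against 151 and 373 (-1.46 ± 0.62 SE, edgeR adjusted p = 0.203), and Dcn 36943 and 20203 against 43.3 and 3606 (-3.96 ± 1.24 SE, edgeR adjusted p = 0.0831). In all, 7 members had both HLU libraries below both Ctrl libraries (29.2% of genes), and Lum, Omd and Vcan overlapped. Aspn was not called without Ctrl replicate 1 (edgeR adjusted p = 0.202) or Ctrl replicate 2 (0.177). The HLU cells put into this class carried few of its markers: 5 and 10 of 16 had a UMI, against 16 and 16 in Ctrl, and neutrophil markers made up 3.89% and 3.01% of their UMIs, against 0.268% and 0.817%. Their part in the result was not tested.

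In K2 (364, 240, 14 and 30 cells) 0 of the 9 members tested were called by edgeR, as were 0 of all genes (0% of 8011, with 1449 at an unadjusted p under 0.05). Dcn went from 31037 and 46195 scaled CPM to 10211 and 13219 (-1.72 ± 0.48 SE, edgeR adjusted p = 0.183), and Acan, which peaked in this class, from 2940 and 5380 to 1027 and 1639 (-1.64 ± 0.51 SE, edgeR adjusted p = 0.196). These and Bgn, Ogn, Prelp and Vcan made 6 members with both HLU libraries below, against 27.2% of genes. Lum overlapped between the groups, with 87.8 and 134 CPM in Ctrl and 767 and 104 CPM in HLU replicates 1 and 2. Chondrocyte markers made up 1.47% and 4.33% of the HLU UMIs of K2, against 6.97% and 8.42% in Ctrl, and neutrophil markers 1.68% and 0.285%, against 0.0980% and 0.176%, and their part in these values was not tested. In the hyaline chondrocyte-like K7 (149, 198, 11 and 22 cells) edgeR called 0 of the 8 members tested (0.0246% of 8142 genes, with 901 at an unadjusted p under 0.05). Acan had 1094 and 1928 scaled CPM in Ctrl and 1082 and 1121 in HLU, and Lum 1058 and 1174 against 1060 and 673, so the groups overlapped for both genes. Dcn (6635 and 6040 scaled CPM against 3651 and 873, -1.49 ± 0.57 SE, edgeR adjusted p = 0.397) and Bgn (-1.30 ± 0.55 SE, edgeR adjusted p = 0.437) were the 2 members with both HLU libraries below (22.9% of genes), with 0 members above (20% of genes). The other classes had too few HLU cells for a test. In K1, 6 and 36 HLU cells had 12537 and 14858 CPM of Dcn, against 40081 and 47755 CPM in Ctrl. S100a8 and S100a9 made up on average 2.27% and 3.02% of the UMIs of these HLU cells, against 0.208% and 0.263% in Ctrl. Their median depths were 22516 and 2445.5 UMIs, against 8357 and 10059.5. In K5, 1 and 13 HLU cells had 595 and 16016 CPM. The first of these values is 1 Dcn UMI among 1682 UMIs, under the floor of 3 counts. The part of these limits was not tested.

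**Figure D4:**
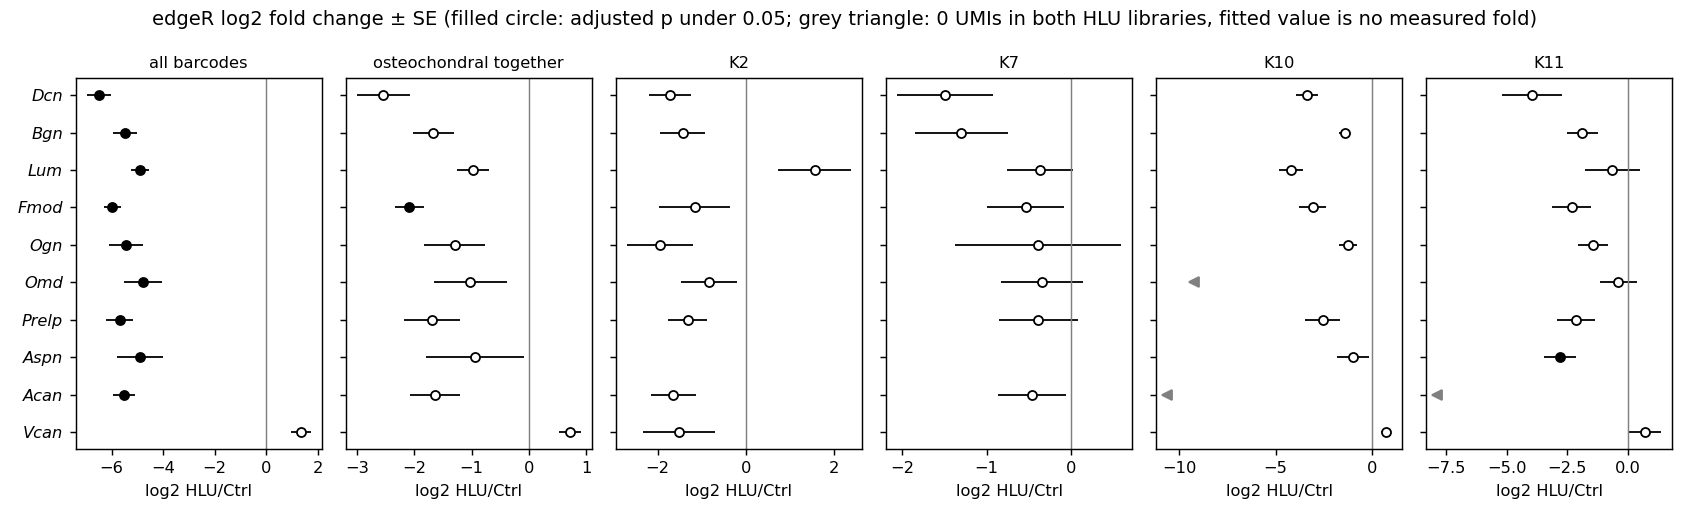
edgeR log2 fold change of HLU over Ctrl (horizontal axis, with SE as bars) of each gene over all barcodes, in osteochondral cells together and in the 4 classes tested. Filled points have an adjusted p under 0.05, grey triangles mark genes with 0 UMIs in both HLU libraries, whose fitted value is no measured fold (Acan in K10 was called), and each panel has its own axis range, with Dcn at -6.50 over all barcodes and -1.49 in K7.

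Versican differed from the others in its cells of origin. Monocytes had the highest level of any cell class in the Ctrl libraries (682 and 462 CPM) and held 48.7% and 58.1% of all Vcan UMIs, while osteochondral cells held 47.9% and 34.4%. In the HLU libraries monocytes held 94.2% and 97.6% and osteochondral cells 2.97% and 1.15%. For the other 9 members, osteochondral cells held between 91.9% and 97.3% of the Ctrl UMIs. Over all barcodes Vcan had 59.4 and 57.6 scaled CPM in Ctrl and 103 and 193 in HLU (1.34 ± 0.37 SE, edgeR adjusted p = 0.0571). Both HLU libraries lay above both Ctrl libraries, as for 31.7% of genes, and 6.06% of genes were called higher. Vcan was called without HLU replicate 1 (1.80, edgeR adjusted p = 0.000604) or HLU replicate 2 (0.82, edgeR adjusted p = 0.0185), by DESeq2 (1.37, adjusted p = 0.00739) and with no filter on low counts (1.37, edgeR adjusted p = 0.0390), and in none of the other 6 alternatives. Monocytes made up 4.32% and 7.57% of the UMIs of kept cells in Ctrl, against 14.2% and 25.0% in HLU. The level within monocytes overlapped between the groups, with 712 and 452 scaled CPM in Ctrl and 679 and 738 in HLU (0.28 ± 0.34 SE, edgeR adjusted p = 0.838), and the change was -0.04 without Ctrl replicate 2. Of all 10436 genes tested in monocytes, 0.00958% were called.

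Vcan UMIs were found in 70.8% (exact 95% interval 64.0 to 77.0%) and 63.0% (57.8 to 68.0%) of Ctrl monocytes, and in 74.1% (69.8 to 78.0%) and 84.2% (82.1 to 86.1%) of HLU monocytes, with median depths of 9160, 9451.5, 12030 and 12778 UMIs. Thinned to 1000 UMIs the shares were 39.6% and 32.9% in Ctrl and 45.01% and 45.4% in HLU. Mature neutrophils, by contrast, had a Vcan UMI in 0.948% to 1.48% of cells. Monocytes comprised 2 clusters. Cluster 6, led by Serpinb2 and Arg1, had 922 and 658 CPM in Ctrl and 1098 and 898 in HLU, and cluster 12, led by Marco and Ccr2, had 252 and 241 against 311 and 548. Cluster 6 was the higher of them in each library, and within neither did Vcan pass the test. Of the 7 members tested in monocytes, 6 had both HLU libraries below both Ctrl libraries (18.7% of genes) and 0 above (19.7%), and Vcan was the one that overlapped. For the other 9 members the monocyte level was near or under that of neutrophils in Ctrl. The count of 6 is therefore no result about monocytes, and the part of free RNA in it was not tested. Dcn had 347 and 759 CPM in Ctrl monocytes, under its neutrophil level, and 2.37 and 1.51 in HLU, where mature neutrophils had 3.80 and 2.38.

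**Figure D5:**
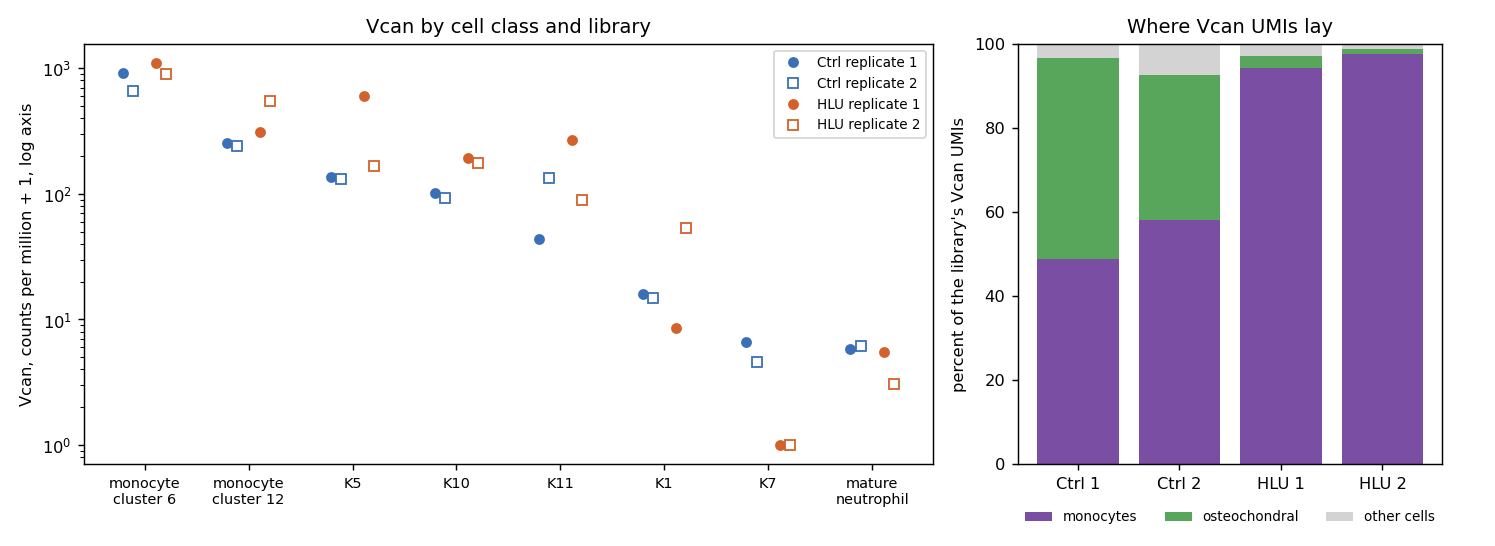
Left, Vcan CPM + 1 (log axis) by cell class and library, with Ctrl in blue and HLU in orange, where HLU replicate 1 in K5 rests on 1 cell. Right, percent of each library's Vcan UMIs in monocytes, osteochondral cells and other cells, where monocytes hold 48.7% and 58.1% in Ctrl, against 94.2% and 97.6% in HLU.

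Most lists of related genes also held many lower calls over all barcodes, where 17.1% of all genes were called lower. Of 10 other small leucine-rich proteoglycans and relatives, 8 were called lower and 0 higher, with a median log2 fold change of -4.29. Chad (chondroadherin of cartilage) went from 4301 and 2568 scaled CPM to 83.6 and 66.2 (-5.52 ± 0.45 SE, edgeR adjusted p = 0.00347), and Ecm2 from 43.9 and 35.6 to 0.430 and 0.911. Kera, a corneal and tendon member, had 137 and 22 UMIs in Ctrl and 0 in HLU, and Optc had 51, 37, 1 and 3 UMIs. Of the 18 link proteins and other large proteoglycans 13 were tested and 7 were called lower (median -2.48). Hapln1, the link protein that ties aggrecan to hyaluronan, went from 310 and 357 to 9.21 and 6.98 scaled CPM (-5.36 ± 0.34 SE, edgeR adjusted p = 0.00326). Hspg2, perlecan of the cartilage pericellular matrix, went from 114 and 136 to 3.14 and 3.45, and Hapln3 and Spock1 were lower at 112, 99, 2 and 5 and at 13, 15, 0 and 0 UMIs. Kera and Spock1 are among the lower calls of their lists. With 0 UMIs in both HLU libraries, they passed the filter on low counts through the Ctrl libraries alone. Of 11 cell surface heparan sulphate proteoglycans 9 were tested and 6 were called lower (median -3.47). Sdc4, a syndecan of focal adhesions, went from 1165 and 1141 to 70.6 and 93.9 scaled CPM, and Sdc2, Gpc6 and Gpc4 changed by -4.97 ± 0.32, -4.89 ± 0.36 and -3.89 ± 0.41 (log2, SE).

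The enzymes that build and degrade the chains moved less uniformly. Of 36 genes of glycosaminoglycan chain synthesis 35 were tested, 15 were called lower and 1 (Chst13, 2.99 and 4.41 against 10.4 and 8.33 scaled CPM) higher, with a median of -0.74. The hyaluronan synthases Has1 and Has2 changed by -5.37 ± 0.94 and -4.39 ± 0.35, and Chst1 and Csgalnact1, which start or sulphate chains, by -3.85 ± 0.35 and -3.42 ± 0.35. Of 25 genes of proteoglycan and hyaluronan degradation 24 were tested, 12 were called lower and 1 (Galns, 6.70 and 8.81 against 18.5 and 22.1) higher, with a median of -1.34. Mmp3 (stromelysin), which cleaves aggrecan, went from 6202 and 7208 to 101 and 442 scaled CPM, Htra1, a protease, from 437 and 304 to 5.59 and 9.34, and Timp3, an inhibitor of aggrecanases, from 564 and 429 to 19.3 and 22.9. Adamts15, an aggrecanase, had 38, 49, 2 and 0 UMIs. Chst13 and Galns were named here for being single calls in their direction, after their values were seen.

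In osteochondral cells together, these lists held 2 calls by edgeR, where 1.17% of all genes were called in either direction. Chst12, a chondroitin sulphotransferase, fell from 87.4 and 109 to 14.6 and 21.3 scaled CPM (-2.44 ± 0.28 SE, edgeR adjusted p = 0.0418). Sdc1, the syndecan of epithelia and plasma cells, rose from 26.2 and 29.0 to 105 and 122 (2.04 ± 0.21 SE, edgeR adjusted p = 0.0417), where 0.769% of all genes were called higher. The medians of the lists ran from -0.45 to 0.28, nearer to the all-gene median of -0.00 than the members' -1.47. In monocytes 0 genes of these lists were called by edgeR, where 483 of all genes had an unadjusted p under 0.05.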

How the data were processed

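Single-cell transcriptomes of bone from 2 Ctrl and 2 HLU libraries were used. The authors counted UMIs per gene and barcode with Cell Ranger 6.0.0 on mm10 and deposited raw counts, without normalization; Seurat 4.1.0 also stands in the submitters' processing notes. No unused per-sample column was found.

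Cells with at least 200 genes and at most 0.2% haemoglobin UMIs were kept from the barcodes of the rule, 1970 putative doublets were removed by Scrublet in scanpy 1.11.5 (0.8% per 1000 cells) in place of DoubletFinder, and 29309 cells (6883, 7046, 7112 and 8268) were integrated and clustered with Seurat 5.3.0 (2000 variable features, 50 components, resolution 1). Osteochondral clusters were clustered again (30 components, resolution 0.5). A cluster was named from at least 3 markers raised by a log2 fold change of 1 or more in at least 10% of its cells. The log2 fold changes of the most raised markers, up to 5, also had to average 1.5 or more. The members were in neither the features nor the marker lists. Low-UMI sub-clusters with over 2% S100a8 and S100a9 UMIs (23, 245, 239 and 21 cells), and another of 19 Ctrl replicate 2 cells, were left out, as was cluster 15, in which Ctrl cells with matrix transcripts were mixed with others.

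UMIs were summed per library and class, so that libraries were the replicates, and tested with edgeR 4.0.16 (TMM, edgeR's filter on low counts, quasi-likelihood test, Benjamini-Hochberg over all genes tested, adjusted p under 0.05). The labels give n = 2 for the mice of each group without tying libraries to mice. Each p-value sets the group difference against the spread between these libraries, estimated with information shared across genes. A class was tested where each library held at least 10 cells. Sums were simulated with 200 genes changed by 3 (log2) and the same dispersion for all genes of a comparison. For all barcodes, osteochondral cells and monocytes this dispersion was 0.119, 0.073 and 0.125. There the test recovered 185, 169 and 183 of the changed genes, with 3, 3 and 8 false calls. In the real monocyte sums the 7 members tested had a median log2 fold change of -5.59, and 0 were called. The simulated recovery is therefore no measure of what the test recovers in the real sums. Shares carry exact 95% binomial (Clopper-Pearson) intervals, and intervals and floors of 3 counts cover counting error only.

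The 10 members and the 5 gene lists were chosen with earlier results of these data known. Named genes were all members, up to 4 called genes per list with the largest change over all barcodes, in osteochondral cells and in monocytes, and the 3 genes most like each member over the classes. The alternatives were DESeq2 1.42.0, library totals, other filters, the replicate number as a block, each library left out, other clusterings, a marker gate and thinned cells. R 4.3.3, Python 3.11.15, numpy 2.4.6, scipy 1.17.1 and pandas 2.3.3 were used.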

Additional observations from a re-analysis of the deposited data

Results flagged for a closer look

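Barcodes under 1000 UMIs were outside the rule and entered no comparison. In them Vcan had 61.4 and 76.7 CPM in the HLU libraries, against 40.0 and 40.9 CPM in the Ctrl libraries. These barcodes numbered 2585, 2212, 2143 and 267, so the value of HLU replicate 2 rests on few of them.

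The fitted change of Vcan had opposite signs in 2 osteochondral classes. Its log2 fold change was 0.74 in the mesenchymal stromal-like K10, where both HLU libraries lay above both Ctrl libraries, and -1.52 in K2, where both lay below. Of all genes tested, 24.1% had both HLU libraries above in K10 and 27.2% had both below in K2. In K2 the HLU libraries held 0 and 4 Vcan UMIs (0 and 12.2 CPM), against 17.1 and 13.9 CPM in Ctrl. These Ctrl levels lay under the 40.0 and 40.9 CPM of Ctrl barcodes under 1000 UMIs. With the first clustering at resolution 0.5 the K2 change was 0.057. Neither change passed edgeR's test (adjusted p = 0.214 and 0.370), and the difference between the classes was not tested.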

How the results depend on the processing

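Over all barcodes 8 to 10 members were called in all 11 settings. In osteochondral cells, where 1 member was called, DESeq2 called 6, no filter on low counts 8, resolution 0.5 4, and the marker gate and no integration 0, as did adding the low-UMI sub-clusters, an alternative chosen after seeing the data. Leaving out 1 library gave 0 to 7, with the lone library of a group assumed to vary like the others. For K2 (0 called) DESeq2 called 1 and no filter 4, and for K7 (0 called) no filter called 1. For K10 (1 called) DESeq2 called 6, library totals 4, no filter 9, a minimum of 10 counts 3, and resolutions 0.5 and 2 both 6, with 1 to 8 when a library was left out. For K11 (1 called) library totals called 0, no filter 6, a minimum of 10 counts 5, and resolutions 0.5 and 2 both 2, with 1 to 7 when a library was left out. Calls over all genes moved with the setting too. With no filter on low counts they were 1977 in osteochondral cells, 652 in K2, 289 in K7 and 1221 in K10. As reported they were 156, 0, 2 and 37, so a higher count of members is no result about the members alone. The causes were not tested. No integration gave no value for K2, where HLU replicate 1 had no cells, or for K11, which had no matching sub-cluster.

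Replicate numbers are only numbers here: deviations of same-numbered libraries had r = -0.052 over 15385 genes. With the replicate block 9 members were called over all barcodes, 1 in osteochondral cells, 0 in K2, 0 in K7, 1 in K10 and 5 in K11, and monocyte Vcan was 0.32.

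Log2 fold changes that turned sign when a library was left out ranged from -0.037 (without Ctrl replicate 2) to 0.66 for Vcan in monocytes, from -2.48 to 0.20 for Fmod, -1.88 to 0.015 for Omd and -0.51 to 2.33 for Lum in K2, from -1.13 to 0.090 for Prelp, -1.43 to 0.051 for Omd and -1.44 to 0.54 for Ogn in K7, and from -12.99 to 0.18 for Lum, -8.81 to 0.32 for Omd and -0.38 to 1.87 for Vcan in K11, where Lum also turned to 0.12 without Ctrl replicate 2. The low ends for Lum and Omd in K11 rest on 0 UMIs in HLU replicate 1. K2 Vcan turned to 0.057 at resolution 0.5. Thinned to 1000 UMIs, the mean share of cells with Vcan was 36.2% in Ctrl and 45.2% in HLU monocytes, and in Ctrl osteochondral cells 93.0% had Dcn and 44.3% Acan.

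Of the values under alternatives, 596 kept their direction and call, 135 passed the threshold only there, 10 no longer passed and 12 reversed. All-gene counts of calls ranged from 848 to 7726 over all barcodes (3568 as reported), 0 to 1977 in osteochondral cells (156), 0 to 3419 in monocytes (1), 0 to 652 in K2 (0), 0 to 289 in K7 (2), 9 to 1221 in K10 (37) and 32 to 412 in K11 (175). Library totals moved the all-gene median to 0.36 in osteochondral cells and in K2, 0.16 in K7, 0.21 in K10 and 0.34 in K11. The tested classes held 10 to 44 cells in each HLU library, and what the test recovers at this size was not simulated.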

Other observations

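A cluster that was left out of the classes, cluster 15, held cells with matrix transcripts in the Ctrl libraries. Its Dcn level was 17318 and 13541 CPM in Ctrl and 3.14 and 5.35 CPM in HLU. No class was assigned to it.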
